A study of Mus musculus with 96 samples.

Results

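The genes described here are 43 genes of autophagy and the lysosome among the 15895 genes of the deposited table, and all 43 were listed in it. They were chosen by symbol, but with earlier results of these data known. RNA was sequenced from fibroblasts cultured directly from CF-1 mouse embryos at day E13, cells that divide when given serum. All cells of the series, the controls included, were first held for 36 h in 0.5% fetal calf serum (starved cells). Serum was then raised to 20%, and cells were collected in 2 time courses, called Cycle 1 and Cycle 2. Starved cells were collected at -1 and 0 h in each Cycle (2 libraries each), and serum-treated cells at 0.5 to 27 h in both Cycles and at 28 to 38 h in Cycle 1 alone. No cells growing steadily in serum were used here, so each change is counted from starved cells of the same Cycle. The hours were grouped into 6 windows, 0.5 to 3 h, 3.5 to 6 h, 6.5 to 10 h, 10.5 to 14 h, 14.5 to 20 h and 20.5 to 27 h, with 9 to 19 libraries each over both Cycles.

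Autophagy is the process by which a cell wraps part of its own cytoplasm in a membrane sac, the autophagosome, and delivers it to the lysosome for digestion. Proteins of the Atg8 family (Lc3 and Gabarap) are attached to lipids of the growing sac, and cargo receptors such as p62 bind both the cargo and Lc3. The lysosome is acidified by the V-ATPase proton pump and holds cathepsins and other hydrolases. The kinase complex mTORC1, which is active on the lysosome surface when growth factors and amino acids are at hand, is known to hold back the starting kinases Ulk1 and Ulk2 and the transcription factors Tfeb, Tfe3 and Mitf.

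In the 95 libraries used, the deposited signal corresponded to 5067432 to 14500278 reads on genes. Signal is the read count of a gene scaled by the authors to 10000000 reads per library. It is not divided by gene length, so levels are compared within a gene and never between genes. Since 2 Cycles are the replicates and no label says that they came from separate embryos or cultures, p-values measure the spread between these time courses. Fibroblast markers were present in all libraries, with the signals of Col1a1, Col1a2, Col3a1, Pdgfra, Pdgfrb, Thy1, Vim and Dcn summing to between 150957 and 503383. Across 9112 genes with a mean signal of at least 100, the Cycle 1 library at 24.5 h stood apart, with a best correlation of 0.940 to any other library, against a median of 0.994. In the Cycle 2 library at 0.5 h, the summed signal of 7 macrophage markers was 732, against 3412 at 0 h and 4812 at 1 h. Leaving out either library moved no count of rises or falls in a window by more than 1.5 times.

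Counted against starved cells, 36 of the 43 genes were not called at 0.5 to 3 h, and falls were most numerous late. At 0.5 to 3 h, 4 of the 43 rose (Sqstm1, Map1lc3a, Wipi2 and Atg7) and 3 fell (Ulk2, Tfeb and Atp6v1a), at an adjusted p under 0.05 in limma's test on log2(signal + 1) across all genes. These are 9.3% and 7.0% of the 43. Over all genes tested, 8.41% rose and 25.4% fell in that window. At 3.5 to 6 h, 5 rose and 6 fell (all genes 16.5% and 33.8%). At 6.5 to 10 h, 4 rose and 10 fell (all genes 16.7% and 28.2%), and at 10.5 to 14 h 3 rose and 10 fell (all genes 17.1% and 26.5%). The falls then grew in number to 17 at 14.5 to 20 h, with 4 rises (all genes 28.3% and 17.7%), and to 23 at 20.5 to 27 h, with Atg16l1 as the 1 rise (all genes 31% and 17.3%). The 23 falls are 53.5% of the genes described here.

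The median change of the 43 genes moved from 0.04 on the log2 scale at 0.5 to 3 h through -0.03, -0.23, -0.23 and -0.36 to -0.48 at 20.5 to 27 h. That of all genes went from -0.25 at 0.5 to 3 h to -0.26, -0.18, -0.12, -0.12 and -0.16. The 43 genes thus stood above the median gene in the first 2 windows and below it in the last. The lists of further genes counted below differed in these first 2 windows. Medians were -0.38 and -0.43 for 21 other autophagy genes and -0.27 and -0.38 for 21 mTORC1 regulators. They were -0.07 and -0.33 for 34 other lysosomal proteins and -0.07 and -0.01 for 14 other V-ATPase genes. The place of the median gene depends on the scaling. With each library rescaled to the same median ratio, all-gene calls at 0.5 to 3 h changed from 1337 up and 4038 down to 2168 up and 2205 down, and the genes described here from 4 up and 3 down to 12 up and 2 down. At 3.5 to 6 h the same rescaling changed all-gene calls from 2615 up and 5369 down to 3625 up and 4014 down, and the 43 genes to 13 up and 5 down. At 20.5 to 27 h it gave 2 up and 20 down, where 20.6% of all genes rose and 28.0% fell. Without Cycle as a replicate block, 16 fell and 0 rose at 20.5 to 27 h, and 8 fell and 0 rose at 14.5 to 20 h, where 22.9% and 20.2% of all genes fell. When the Cycle 1 value of the window was left out, 8 fell at 20.5 to 27 h and 2 at 14.5 to 20 h, where 15.9% and 13.0% of all genes fell. These shares of the 43 genes are near or below those of all genes. With the value of Cycle 2 left out, 18 and 10 fell, where 23.4% and 20.3% of all genes did.

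An F test over the 6 windows called 27 of the 43 genes, against 68.2% of all genes (limma, adjusted p under 0.05). Without the replicate block it called 17, for which no share of all genes is given. Among the 16 not called were Becn1, Tfe3, Lamp1 and Ctsz, which passed in none of the windows either. Gabarap, Gabarapl2, Atg14, Atg9a, Glb1, Neu1 and Atp6v1h were also not called by the F test, though each passed in at least 1 window. Over 29 hours sampled in both Cycles, the signal of a gene in Cycle 1 followed that in Cycle 2 with a median correlation of 0.72 over the 43 genes, from -0.18 for Gabarapl2 to 0.96 for Sqstm1. The median over all genes was 0.62, and the hours of a Cycle follow each other in time.

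**Figure D1:**
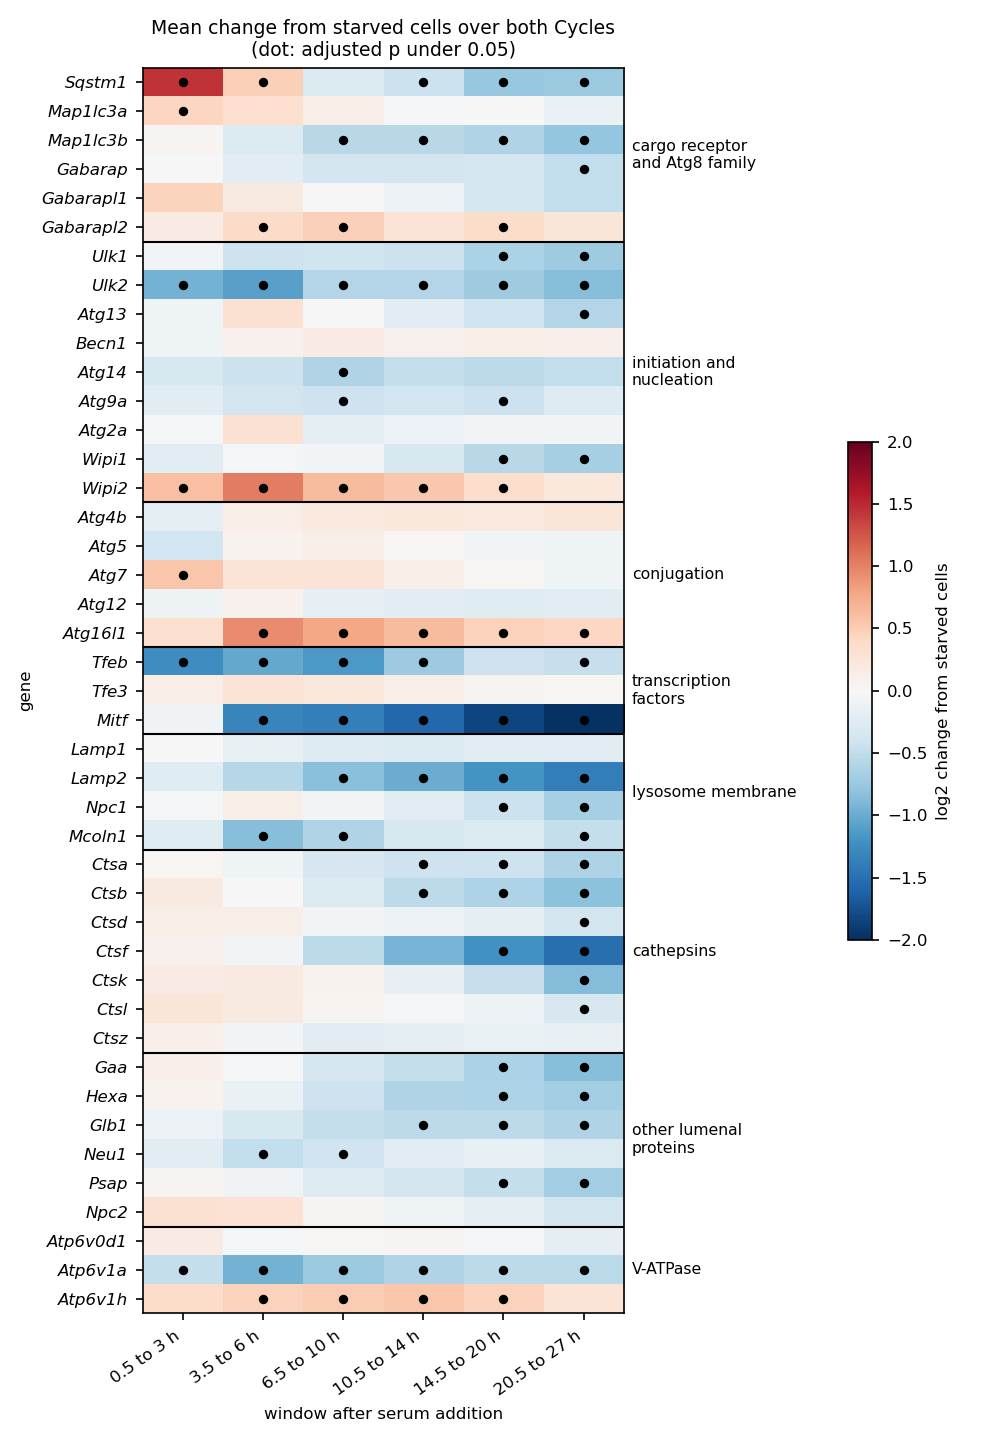
Mean log2 change of signal from starved cells over both Cycles (color) for the 43 genes (rows, by role) in 6 windows after serum addition (columns), with a dot where the adjusted p was under 0.05. The early windows hold single strong rises and falls (Sqstm1 at 1.45, Tfeb at -1.24), and the last window holds 23 falls that include 6 of 7 cathepsins.

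Sqstm1 (chromosome 11, 50012868 to 50024329, minus strand, build NCBIM37) encodes the cargo receptor p62, and it made the largest rise among the 43 genes. Its starved libraries held signals of 3816 and 4393 in Cycle 1 and 3751 and 4866 in Cycle 2. At 0.5 to 3 h the lowest, median and highest libraries were 9896, 12648 and 14330 in Cycle 1 and 7007, 11155 and 12980 in Cycle 2. All 11 libraries of the window lay above all 4 starved ones. The highest library was that at 2 h in both Cycles, at 3.49 and 3.01 times the starved mean. The change at 0.5 to 3 h was 1.45 ± 0.151 (limma's SE, 2 Cycles) on the log2 scale, or 2.73-fold (limma, adjusted p = 0.000706). This SE, here and below, comes from a spread pooled over all windows and moderated across genes. It is thus the same in each window of a gene and is not the spread of the 2 Cycles in that window.

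The rise of Sqstm1 was brief. It stood at 0.48 ± 0.151 at 3.5 to 6 h (limma, adjusted p = 0.0274), and from 10.5 to 14 h on it was below starved cells, reaching -0.75 ± 0.151 at 14.5 to 20 h (limma, adjusted p = 0.00509). In the last window the libraries ranged from 2223 to 3015 in Cycle 1 and from 2266 to 3575 in Cycle 2, all below the starved libraries.

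The 5 Atg8 genes did not follow Sqstm1 closely. Map1lc3b (chromosome 8, 124114368 to 124121947, plus strand), which encodes the widely used autophagosome marker Lc3b, held 864 and 780 in the starved libraries of Cycle 1 and 740 and 761 in those of Cycle 2. At 20.5 to 27 h its lowest, median and highest libraries were 351, 420 and 545 in Cycle 1 and 429, 479 and 554 in Cycle 2. The 2 groups did not overlap. Its change there was -0.78 ± 0.154 (limma, adjusted p = 0.00441), and it fell in each window from 6.5 to 10 h on.

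Map1lc3a rose at 0.5 to 3 h and in no later window, by 0.43 ± 0.142 (limma, adjusted p = 0.045), with 0.67 in Cycle 1 and 0.20 in Cycle 2. Gabarap fell at 20.5 to 27 h, by 0.50 on the log2 scale (limma, adjusted p = 0.0204). Gabarapl1 passed in no window, with values from 0.44 early to -0.49 late. Gabarapl2 rose at 3.5 to 6 h, 6.5 to 10 h and 14.5 to 20 h, by 0.38, 0.47 and 0.36. Its starved signals were 30.1 and 32.8 in Cycle 1 and 35.3 and 40.4 in Cycle 2, so that few reads stand behind each value.

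The genes that start the autophagosome moved in opposite directions. Ulk2 (chromosome 11, 61589151 to 61668575, minus strand), 1 of the 2 kinases that start autophagy, fell in all 6 windows. Its starved libraries held 800 and 766 in Cycle 1 and 628 and 569 in Cycle 2. At 3.5 to 6 h the lowest, median and highest were 273, 321 and 472 in Cycle 1 and 271, 300 and 350 in Cycle 2, with no overlap. The change was -1.09 ± 0.164 (limma, adjusted p = 0.00107). Its lowest library of Cycle 2 was at 5 h, with 0.454 times the starved mean, and that of Cycle 1 was the 24.5 h library that stood apart, at 210 between 375 at 24 h and 333 at 25 h.

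Ulk1, the other starting kinase, fell later. It passed at 14.5 to 20 h (-0.64 ± 0.152, adjusted p = 0.0107) and at 20.5 to 27 h (-0.71 ± 0.152, adjusted p = 0.00638), both by limma, and its fall was larger in Cycle 1, at -0.93, than in Cycle 2, at -0.48, in the last window. Atg13, the adaptor of the Ulk complex, stood at 0.30 ± 0.166 at 3.5 to 6 h, which did not pass (limma, adjusted p = 0.16), and fell at 20.5 to 27 h by 0.58.

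Wipi2 (chromosome 5, 143105496 to 143146542, plus strand) encodes a lipid-binding protein that brings the Atg16l1 complex to the growing membrane. Its starved libraries held 761 and 736 in Cycle 1 and 689 and 773 in Cycle 2, and at 3.5 to 6 h the lowest, median and highest were 1343, 1572 and 1626 in Cycle 1 and 1296, 1517 and 1577 in Cycle 2. All 9 libraries lay above the 4 starved ones. The change was 1.02 ± 0.121, or 2.03-fold (limma, adjusted p = 0.000385), nearly equal in Cycle 1 (1.04) and Cycle 2 (1.00). Wipi2 rose in every window up to 14.5 to 20 h, and at 20.5 to 27 h its change of 0.21 did not pass.

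Its paralog Wipi1 took the other direction. It fell at 14.5 to 20 h and 20.5 to 27 h, by 0.55 and 0.67, and was not called earlier. Of the remaining genes of this group, Atg9a, the membrane protein of the seed vesicles, fell at 6.5 to 10 h and 14.5 to 20 h (-0.41 and -0.43), and Atg14, a subunit of the lipid kinase complex, fell at 6.5 to 10 h (-0.61 ± 0.2, adjusted p = 0.0364 by limma), with -0.94 in Cycle 1 and -0.28 in Cycle 2. Becn1, the core of that complex, and the lipid carrier gene Atg2a passed in none. Values of Becn1 lay between -0.08 and 0.16 over the 6 windows.

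Among the 5 genes of the conjugation machinery, which couples Atg8 proteins to lipid, Atg16l1 and Atg7 rose and the other 3 were called in no window. Atg16l1 (chromosome 1, 89652445 to 89689003, plus strand), which directs the coupling to the membrane, held 314 and 310 in starved Cycle 1 and 339 and 328 in starved Cycle 2. At 3.5 to 6 h its lowest, median and highest libraries were 575, 680 and 761 in Cycle 1 and 563, 577 and 596 in Cycle 2. They did not overlap with starved cells, and the change was 0.94 ± 0.134, or 1.92-fold (limma, adjusted p = 0.000811). Atg16l1 remained above starved cells in each later window and was the only gene of the 43 to rise at 20.5 to 27 h (0.41 ± 0.134, adjusted p = 0.0338 by limma).

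Atg7 (chromosome 6, 114593149 to 114810431, plus strand), the activating enzyme of the pathway, held 209 and 230 in starved Cycle 1 and 174 and 215 in starved Cycle 2. At 0.5 to 3 h its lowest, median and highest libraries were 324, 333 and 356 in Cycle 1 and 255, 272 and 296 in Cycle 2, above all starved ones. The change of 0.56 ± 0.142 (limma, adjusted p = 0.0176) did not pass without the replicate block (adjusted p = 0.0589) or with the Cycle 1 value left out (adjusted p = 0.116), and over all alternatives its adjusted p ran from 0.00057 to 0.116. Atg4b, Atg5 and Atg12 stayed between -0.38 and 0.24 in all windows.

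**Figure D2:**
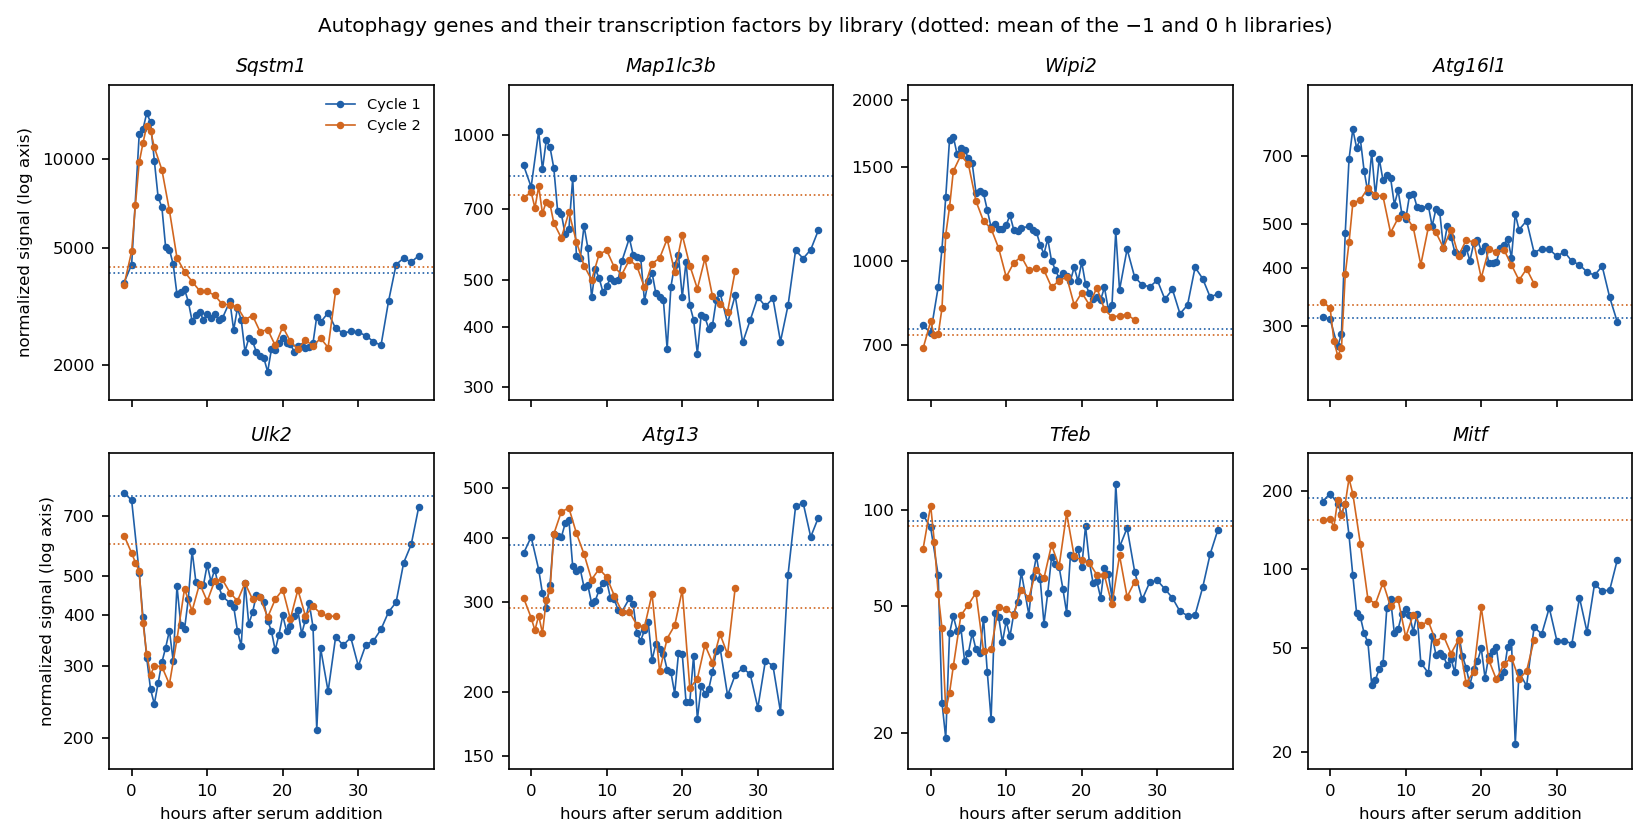
Signal (log axis) in each library against hours after serum addition for 6 autophagy genes and the transcription factor genes Tfeb and Mitf, Cycle 1 in blue and Cycle 2 in orange, with dotted lines at the mean of the -1 and 0 h libraries of each Cycle. Sqstm1 and Wipi2 peak in the first hours in both Cycles, Ulk2 and Tfeb drop at once, and Mitf falls in both Cycles from 3.5 h on, after early values below starved cells in Cycle 1 and mostly above them in Cycle 2.

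The 3 transcription factor genes differed. Tfeb, the best known activator of lysosomal genes, held 96.7 and 88.4 in starved Cycle 1 and 75.7 and 104 in starved Cycle 2. At 0.5 to 3 h its lowest, median and highest libraries were 19.3, 41.2 and 62.6 in Cycle 1 and 23.6, 37.6 and 79.4 in Cycle 2. Of these 11 libraries 10 lay below all starved ones, and the exception was that at 0.5 h in Cycle 2. The lowest library was that at 2 h in both Cycles, at 0.209 and 0.264 times the starved mean. The change was -1.24 ± 0.152, or 0.422-fold (limma, adjusted p = 0.00113). Tfeb then came back in part, to -0.72 at 10.5 to 14 h and -0.46 at 20.5 to 27 h, both called, and -0.42 at 14.5 to 20 h, which was not (limma, adjusted p = 0.051).

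Mitf (chromosome 6, 97757052 to 97971352, plus strand), a relative of Tfeb best known from pigment cells, differed between the Cycles at first and then made the largest fall of the 43 genes. Its starved libraries held 182 and 195 in Cycle 1 and 155 and 156 in Cycle 2. At 0.5 to 3 h the libraries ranged from 95.0 to 179 in Cycle 1, all below the starved ones of that Cycle, and from 146 to 223 in Cycle 2, overlapping with them. The mean change of -0.08, which did not pass, thus averages -0.36 in Cycle 1 and 0.21 in Cycle 2. At 20.5 to 27 h the lowest, median and highest were 21.5, 43.5 and 60.3 in Cycle 1 and 37.9, 43.4 and 53.8 in Cycle 2, far from the starved libraries. The change was -1.97 ± 0.215, or 0.255-fold (limma, adjusted p = 0.000313), and Mitf fell in each of the 5 windows from 3.5 to 6 h on. Tfe3, the third factor, stood between 0.04 and 0.28 and passed in no window. These are levels of RNA, and the location of the proteins was not measured.

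The letters CACGTG, the core of the site that Tfeb and its relatives are known to bind, were sought on both strands in RefSeq promoters of build GRCm38.p6, from 250 bases before to 50 after each gene start. Of the 43 genes 36 had a promoter there, and 13 of these (36.1%) held CACGTG, against 8.09% of 27025 genes. The longer TCACGTGA, which contains CACGTG, stood in 5 (13.9%), Atp6v0d1, Atp6v1a, Ctsa, Ctsd and Mcoln1, against 1.12% of the same 27025 genes. Both are the same on either strand. Stretches around 3 of these matches are printed to show the letters in genes that fell, with TCACGTGA in capitals. They lie at chr7:142387889-142387956 on the minus strand (Ctsd), chr8:3500443-3500510 on the plus strand (Mcoln1) and chr16:44139354-44139421 on the minus strand (Atp6v1a).
Ctsd: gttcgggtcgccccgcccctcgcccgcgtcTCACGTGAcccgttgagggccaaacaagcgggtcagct
Mcoln1: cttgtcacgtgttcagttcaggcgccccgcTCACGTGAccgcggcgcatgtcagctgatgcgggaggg
Atp6v1a: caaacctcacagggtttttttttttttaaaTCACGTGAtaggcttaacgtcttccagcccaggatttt

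A match is a description of letters, not of binding. The 13 genes with CACGTG had a median change of -0.48 at 20.5 to 27 h and 8 of them fell, and the 23 without it had a median of -0.50 and 13 fell. At 3.5 to 6 h the medians were -0.06 in both sets. Of the 5 genes with the longer motif, Mcoln1 and Atp6v1a had their largest falls at 3.5 to 6 h, Ctsa and Ctsd theirs at 20.5 to 27 h, and Atp6v0d1 was called in no window.

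Of the 4 genes of the lysosomal membrane, Lamp2, Npc1 and Mcoln1 fell at 20.5 to 27 h, where 31% of all genes fell. Lamp1 was called in no window. Lamp2 (chromosome X, 35754534 to 35809631, minus strand), a major coat protein of the lysosome, held 6195 and 6188 in starved Cycle 1 and 5803 and 5402 in starved Cycle 2. In the last window its lowest, median and highest libraries were 746, 1911 and 2105 in Cycle 1 and 2653, 2969 and 3048 in Cycle 2. No library reached the starved range, and the value of 746 is that of the 24.5 h library. The change was -1.39 ± 0.226, or 0.382-fold (limma, adjusted p = 0.00192), with -1.82 in Cycle 1 and -0.95 in Cycle 2. Lamp2 declined step by step through the windows, from -0.24 and -0.57, which did not pass, to falls of 0.83, 0.99, 1.19 and 1.39.

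Lamp1 (chromosome 8, 13159135 to 13175338, plus strand), its companion in the membrane, changed far less. It held 8272 and 7951 in starved Cycle 1 and 11116 and 10888 in starved Cycle 2. At 10.5 to 14 h, its window of largest change, the lowest, median and highest were 6497, 6837 and 7250 in Cycle 1 and 8781, 8834 and 8972 in Cycle 2. Within each Cycle these lay below the starved libraries, but across the Cycles the ranges overlapped. The change of -0.28 ± 0.101 just missed the threshold (limma, adjusted p = 0.0519).

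Mcoln1, which encodes a cation channel that lets calcium out of the lysosome, fell early, by 0.85 at 3.5 to 6 h (limma, adjusted p = 0.00116). Its libraries then ranged from 157 to 180 in Cycle 1 and from 200 to 261 in Cycle 2, against 345 to 359 and 357 to 365 in starved cells. It returned to values that did not pass at 10.5 to 14 h and 14.5 to 20 h (-0.31 and -0.27) and fell again at 20.5 to 27 h, by 0.48. Npc1, the membrane-bound partner in cholesterol export, fell late, by 0.43 and 0.67 in the last 2 windows, and was not called before.

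The cathepsins, the lysosomal proteases, moved together in the last window. None of the 7 was called in the first 3 windows, 2 fell at 10.5 to 14 h, 3 at 14.5 to 20 h and 6 at 20.5 to 27 h, all but Ctsz. Of all genes, 26.5%, 28.3% and 31% fell in these last 3 windows. The median of the 7 at 20.5 to 27 h was -0.62. Ctsf (chromosome 19, 4855129 to 4860912, plus strand) changed most. It held 598 and 557 in starved Cycle 1 and 223 and 220 in starved Cycle 2, so the Cycles differed before serum was added. In that window its lowest, median and highest libraries were 101, 116 and 176 in Cycle 1 and 102, 128 and 156 in Cycle 2. The 2 Cycles thus ended at like levels from unlike starts, and neither overlapped with starved cells. The change was -1.50 ± 0.350, or 0.352-fold (limma, adjusted p = 0.00873), with -2.21 in Cycle 1 and -0.80 in Cycle 2. With the Cycle 1 value of this window left out it was -1.13 and no longer passed (adjusted p = 0.0843), the highest over all alternatives, which gave it from 6.7e-07.

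Ctsb, an abundant cathepsin, held 9254 and 8552 in starved Cycle 1 and 10718 and 10464 in starved Cycle 2. Its libraries at 20.5 to 27 h ranged from 4062 to 5129 and from 6164 to 7436, a change of -0.83 ± 0.158 (limma, adjusted p = 0.00377). Ctsk, a collagen-degrading cathepsin known from bone, was near its starved level up to 10 h, with window values from 0.07 to 0.18, and fell by 0.87 at 20.5 to 27 h (limma, adjusted p = 0.00471), from 1545 and 1482 to between 532 and 840 in Cycle 1 and from 1229 and 1303 to between 776 and 974 in Cycle 2. Ctsa and Ctsd fell there by 0.62 and 0.37.

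Ctsl (chromosome 13, 64464522 to 64471614, minus strand), known as a protein that transformed mouse fibroblasts secrete, held 7118 and 6905 in starved Cycle 1 and 8280 and 8337 in starved Cycle 2. At 0.5 to 3 h its libraries reached 9054 and 10274, and the change of 0.25 ± 0.111 did not pass (limma, adjusted p = 0.12). In the last window the lowest, median and highest were 3811, 5514 and 6473 in Cycle 1 and 6256, 7052 and 7437 in Cycle 2, overlapping with the starved range over both Cycles but not within either. The change of -0.31 ± 0.111 (limma, adjusted p = 0.0445) was lost under other scalings (adjusted p = 0.125 with TMM and 0.118 with the median of ratios) and without the replicate block, and over all alternatives its adjusted p ran from 6.53e-05 to 0.253.

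The other proteins of the lumen followed the same late course. Of the 6, none was called at 0.5 to 3 h, and at 20.5 to 27 h Gaa, Hexa, Glb1 and Psap had fallen, where 31% of all genes fell. Gaa, the enzyme that breaks down glycogen in the lysosome, fell by 0.86 (limma, adjusted p = 0.00877), and Psap, the precursor of the saposins, by 0.69 (limma, adjusted p = 0.0107). Hexa and Glb1, which remove sugars from glycolipids, fell by 0.69 and 0.60. Psap held 13976 and 12961 in starved Cycle 1 and 10784 and 10757 in starved Cycle 2, and between 6596 and 8578 and between 7162 and 8899 at 20.5 to 27 h. Neu1, the sialidase that works in a complex with Glb1 and Ctsa, was the exception in time, with falls at 3.5 to 6 h and 6.5 to 10 h (-0.49 and -0.40) and none later. Npc2, the soluble partner of Npc1, was called in no window, at 0.31 early and -0.37 late.

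The 3 subunits of the V-ATPase did not move as a unit. Atp6v1a, the catalytic subunit, fell in all 6 windows, most at 3.5 to 6 h (-0.95 ± 0.134, adjusted p = 0.000787 by limma). It held 1175 and 1192 in starved Cycle 1 and 1790 and 1632 in starved Cycle 2, and then between 523 and 754 in Cycle 1 and between 696 and 906 in Cycle 2. Atp6v1h (chromosome 1, 5073254 to 5152630, plus strand), a regulatory subunit, rose in the 4 windows from 3.5 to 6 h to 14.5 to 20 h. It held 672 and 616 in starved Cycle 1 and 945 and 942 in starved Cycle 2. At 10.5 to 14 h its lowest, median and highest libraries were 984, 1083 and 1130 in Cycle 1 and 1180, 1216 and 1275 in Cycle 2, above all starved ones. The change of 0.55 ± 0.141 (limma, adjusted p = 0.0145) did not pass without the replicate block (adjusted p = 0.0576) or with the value of either Cycle left out (adjusted p = 0.0950 and 0.0654). Over all alternatives its adjusted p ran from 1.65e-06 to 0.0950. Atp6v0d1, of the membrane sector, was called in no window.

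**Figure D3:**
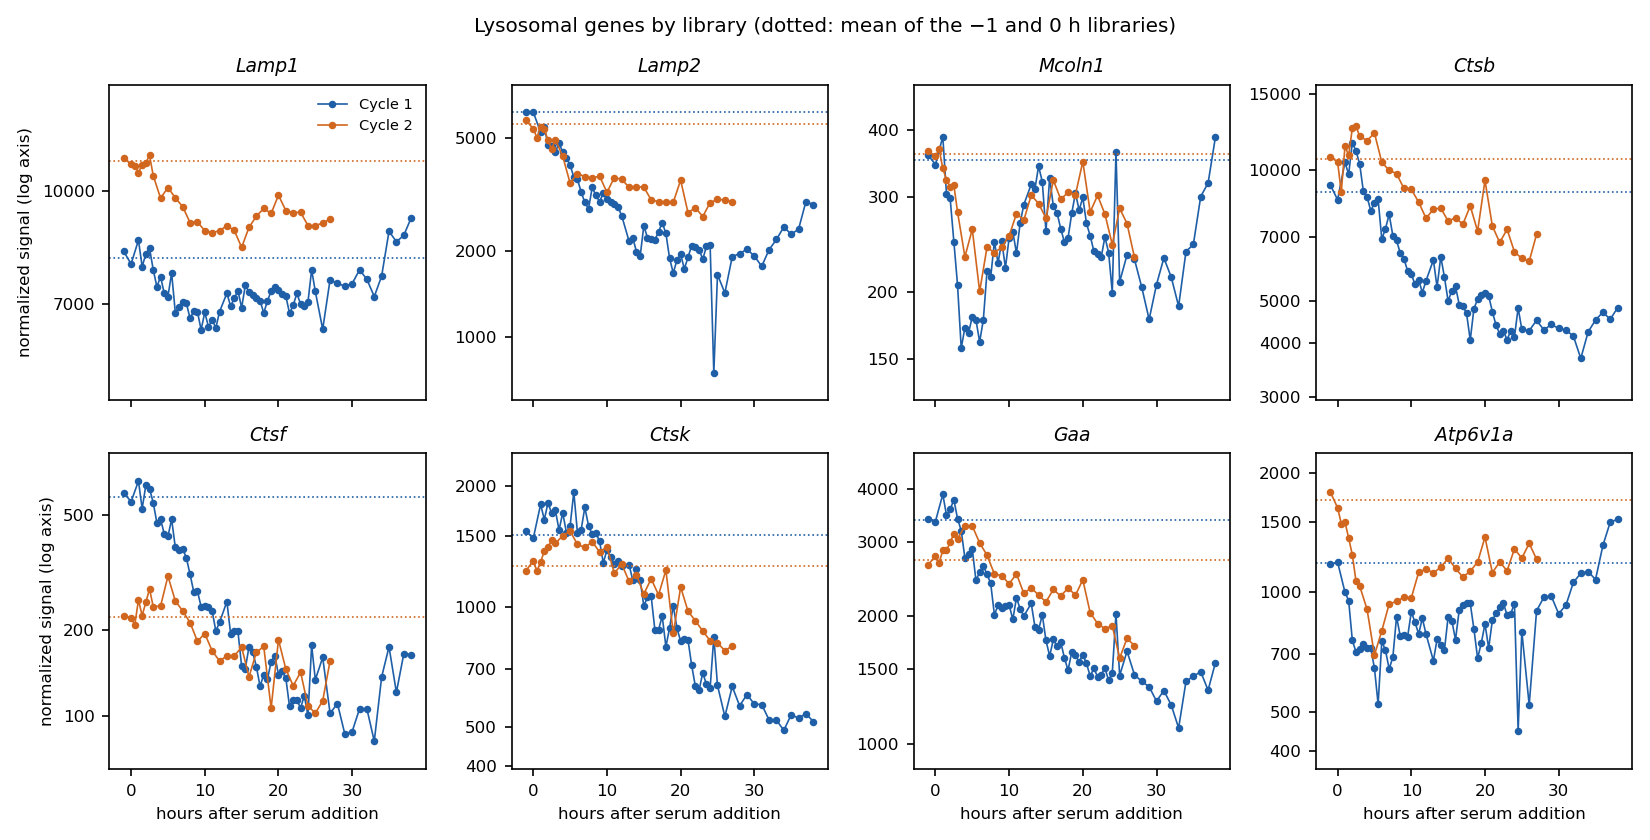
Signal (log axis) in each library against hours after serum addition for 8 lysosomal genes, Cycle 1 in blue and Cycle 2 in orange, with dotted lines at the mean of the -1 and 0 h libraries of each Cycle. Mcoln1 and Atp6v1a dip within the first hours, while Ctsb, Ctsf, Ctsk and Gaa stay near or above their starved level in the first hours and decline later, and the single low point of Lamp2 is the 24.5 h library of Cycle 1.

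Several genes had their lowest value in the same library. How many of all genes had theirs there was not counted, so a low library cannot be told apart from a trait of the 43 genes. Over the 43 genes, the lowest values of Cycle 1 lay at hours from 1 h (Atg16l1) to 34 h (Ctsk). In Cycle 1 the library at 33 h held the lowest serum-treated value of 16 of the 43 genes, among them Ctsa, Ctsb, Ctsd, Ctsf, Ctsz, Gaa, Hexa, Glb1 and Psap. In Cycle 2, which ended at 27 h, the libraries at 25 and 26 h held that of 18, Ctsk and Ctsl included. The 24.5 h library of Cycle 1 held the lowest value of Ulk2, Atg12, Mitf, Lamp2, Atp6v1a and Atp6v1h.

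Cycle 1 was followed to 38 h, and these hours have no counterpart in Cycle 2, so they are given without a test. Over 28 to 38 h the median change of the 43 genes was -0.39, against -0.14 for all genes. Of the 43, 36 lay below their starved mean, and the share of all genes that did is not given. Ctsf stood at -2.28, Ctsk at -1.48, Lamp2 at -1.47, Mitf at -1.43 and Gaa at -1.32. Ctsk was as low at 38 h, with 516, as at 34 h, with 491. Other genes turned upward in the last libraries. Between 34 and 38 h Sqstm1 went from 3300 to 4708, Ulk2 from 408 to 738, Wipi1 from 547 to 804 and Atp6v1a from 1128 to 1526. Atg16l1 went the other way, from 393 to 306, just under its starved signals of 314 and 310.

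The late decline was larger in Cycle 1. Of the 23 genes that fell at 20.5 to 27 h, 20 had the larger fall in Cycle 1, and Sqstm1, Tfeb and Ctsd were the exceptions. The median change of the 43 genes in that window was -0.52 in Cycle 1 and -0.30 in Cycle 2, where all genes stood at -0.22 and -0.10. In Cycle 1 37 of the 43 lay below their starved mean and in Cycle 2 34. By the mean of both Cycles 36 did, as did 9270 of all 15895 genes. The difference between the Cycles was not tested.

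**Figure D4:**
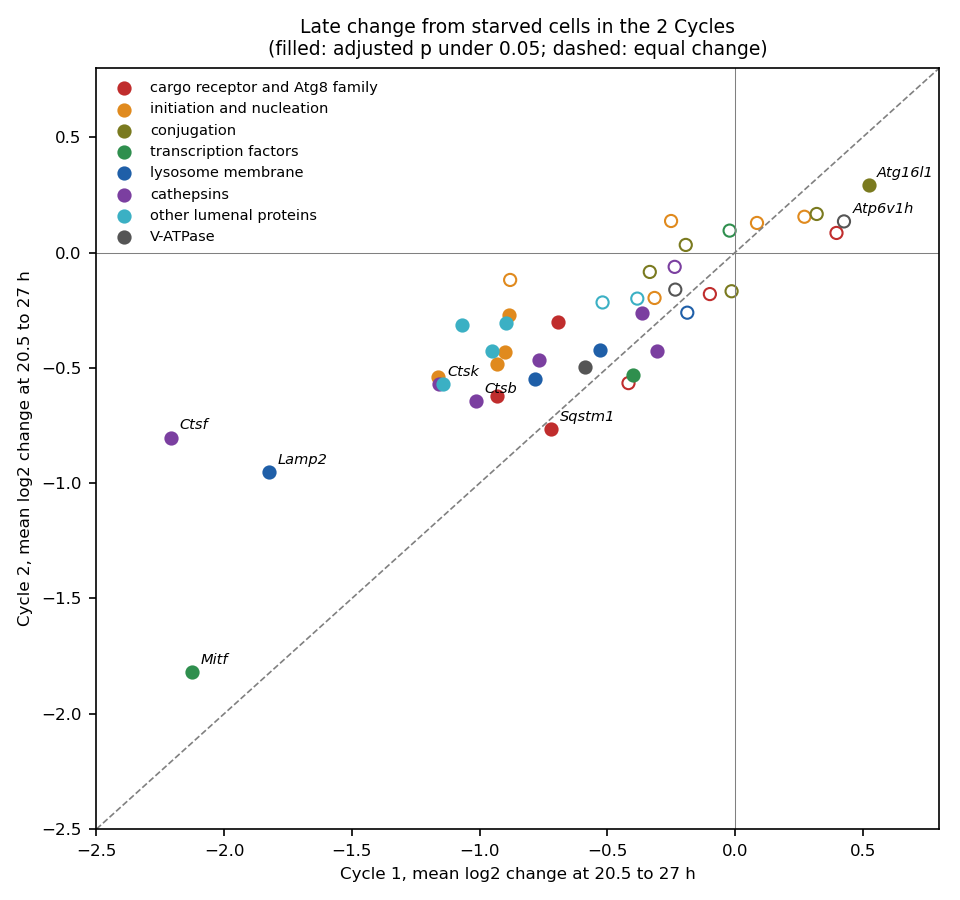
Mean log2 change from starved cells at 20.5 to 27 h in Cycle 1 (horizontal) and Cycle 2 (vertical) for the 43 genes, colored by role, filled where the adjusted p was under 0.05, with a dashed line of equal change. Most points lie above the line on the left, since falls were larger in Cycle 1, as for Ctsf at -2.21 and -0.80.

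The last window was also set against 10.5 to 14 h, without the starved cells. No gene of the 43 passed in either direction (limma, adjusted p under 0.05), against 0.359% of all genes that rose and 1.57% that fell, and edgeR on recovered reads called 0 as well. At an unadjusted p under 0.05 there were 5 of the 43 genes, all lower at 20.5 to 27 h, and 2306 of all 15895 genes, so the share among the 43 was not above that of all genes. The median of the 43 was -0.22 and that of all genes -0.04. In a fit that takes single libraries of the shared hours as samples, 24 of the 43 fell and 0 rose, where 17.4% of all genes fell and 11% rose. The largest differences were those of Ctsk, at -0.70, and Ctsf, at -0.58.

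By a fold rule, a signal above 2 or below 0.5 times the starved mean of its Cycle in any library, 24 of the 43 genes changed, where 85% of all genes did. All 24 passed in Cycle 1 and 8 in Cycle 2, where 13397 and 9455 of all 15895 genes passed. Above 2-fold at the same hour in both Cycles were Sqstm1 and Wipi2 (2 genes, all genes 14.8%), and below 0.5-fold were Ulk2, Tfeb, Mitf, Lamp2 and Ctsf (5 genes, all genes 41.9%).

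Further genes of the pathways were counted from lists of their own. Of 34 other lysosomal proteins, 25 fell and 1 rose at 20.5 to 27 h (73.5% falling), with a median of -0.73. Of all genes 31% fell and 17.3% rose there. The F test called 27 of the 34, against 68.2% of all genes. At 10.5 to 14 h 23 of the 34 had already fallen, where 26.5% of all genes fell. Between that window and the last, 0 of the 34 were called. The largest fall was that of the cathepsin gene Ctso, at -2.53 ± 0.436 (limma, adjusted p = 0.00245), followed by Idua, an enzyme of glycosaminoglycan breakdown, at -1.66. Lipa, the acid lipase, fell by 1.14. The receptors that carry new hydrolases to the lysosome parted. Igf2r, the large mannose 6-phosphate receptor, fell by 1.49, and M6pr, the small one, rose by 0.77 (limma, adjusted p = 0.0039 and 0.00791).

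Of 14 other V-ATPase genes, 2 fell (Atp6v0e2 and Atp6ap2) and 0 rose at 20.5 to 27 h, with a median of -0.06. These 14.3% that fell are under the 31% of all genes. Of 21 other autophagy genes, 10 (47.6%) fell and 1 rose there, against 31% and 17.3% of all genes, with a median of -0.34. The receptors of mitochondria Bnip3 and Bnip3l fell by 2.53 ± 0.668 and 1.49 ± 0.135 (limma, adjusted p = 0.0147 and 0.000139), the cargo receptor gene Nbr1 fell by 0.94, and the protease gene Atg4d rose by 0.69. Among 21 mTORC1 regulators that act at the lysosome, 8 (38.1%) fell and 1 rose, against 31% and 17.3% of all genes. Sesn3, a sestrin known as a brake on mTORC1, fell by 3.20 ± 0.346 and Rragd, a Rag GTPase, by 1.71 ± 0.216 (limma, adjusted p = 0.000302 and 0.00062). The genes of mTOR itself and its partner raptor, Mtor and Rptor, stood at 0.14 and 0.16 at 20.5 to 27 h and did not pass. Rheb, the GTPase that activates the complex, rose there by 0.48 (limma, adjusted p = 0.0436). At 0.5 to 3 h 7 of the 21 fell, Mtor, Tsc1 and Tsc2 among them, where 25.4% of all genes fell.

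**Figure D5:**
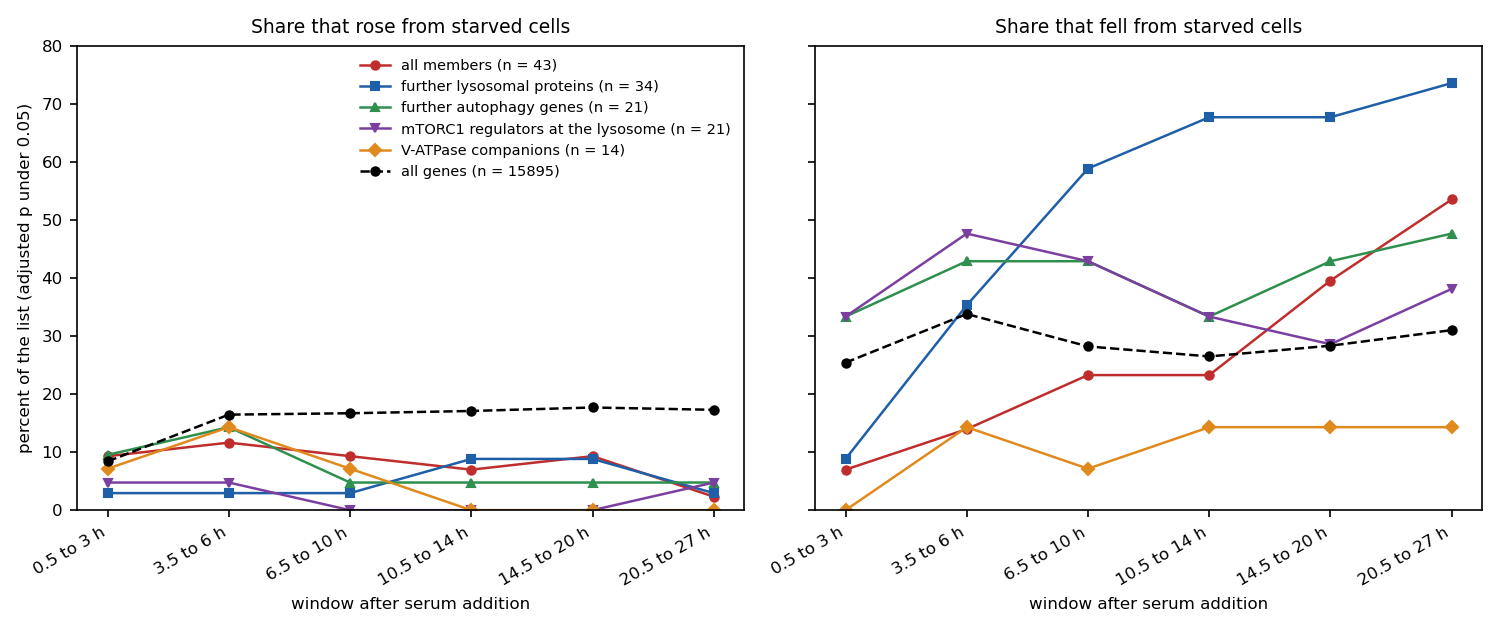
Percent of each gene list that rose (left) or fell (right) from starved cells at an adjusted p under 0.05, in 6 windows after serum addition, for the 43 genes, 4 further lists and all 15895 genes. The share that fell climbs through the course among the 34 other lysosomal proteins, to 73.5%, and among the 43 genes, to 53.5%, and stays at or under 14.3% among the 14 other V-ATPase genes.

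Macrophages are rich in lysosomes, and their markers moved as well. The list held Ptprc, Csf1r, Aif1, Cd68, Lyz2, Itgam and 1 gene under its symbols Adgre1 and Emr1. The table lists 7 of these 8 symbols, all but Adgre1, and Aif1 was at 0 in 9 of the 95 libraries. Their summed signal ranged from 1109 to 1180 in starved Cycle 1 and from 3412 to 3494 in starved Cycle 2. At 20.5 to 27 h it ranged from 601 to 900 and from 2100 to 2712. There Ptprc, Emr1, Cd68, Lyz2 and Itgam fell, by 1.03, 0.85, 0.66, 0.67 and 0.57, Csf1r rose by 0.66, and Aif1, at -0.54, did not pass. Their part in the falls of the lysosomal genes was not tested. In bulk RNA, fewer cells of a type and less RNA per cell cannot be told apart. In the Cycle 2 library at 0.5 h, where these markers were low, 23 of the 43 genes were lower than at both 0 and 1 h. The share of all genes that were lower there was not counted, so the 23 have no reference. Ctsb was 8887 there, against 10464 and 11357, while Lamp1, at 10831, lay between its neighbours.

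Markers of other cell types were also looked at. Osteoclast markers, chosen for Ctsk, had a summed signal of Acp5, Ocstamp and Oscar of 40.6 to 42.2 in starved Cycle 1 and 21.9 to 26.4 in starved Cycle 2, and Ocstamp was at 0 in 60 of 95 libraries. The fixed list also held Calcr, which is not in the table used here. Acp5 rose at 0.5 to 3 h, 3.5 to 6 h and 6.5 to 10 h, by 1.19, 1.42 and 1.05, and Ocstamp, from signals near 0, was called as rising there too. None of the 3 passed at 20.5 to 27 h, where Ctsk fell and Acp5 stood at -0.69 in Cycle 1 and 0.48 in Cycle 2. The 4 endothelial and 4 epithelial markers summed to 176 to 272 and 109 to 275 in starved libraries and to 42.2 to 101 and 76.1 to 220 at 20.5 to 27 h. There Pecam1, Cdh5, Tek, Epcam, Cdh1 and Krt8 fell and Kdr and Krt18 did not pass. Among the fibroblast markers, Col1a1, Col1a2, Col3a1, Pdgfra and Dcn fell at 20.5 to 27 h, Thy1 and Vim rose, and Pdgfrb did not pass.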

How the data were processed

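RNA of 95 libraries was analysed (63 of Cycle 1 and 32 of Cycle 2). The authors aligned single-end reads to mm9 with STAR, counted reads in exons on both strands with HOMER and scaled each library to 10000000 reads, and the deposited table holds this normalized signal per gene symbol. Since both strands were counted, antisense transcripts cannot be told apart. The signal steps gave 94.2 to 96.2% whole reads within 0.1 read, hence the depths. For 9 of the 43 genes (Map1lc3a, Atg16l1, Tfeb, Tfe3, Mitf, Lamp2, Ctsa, Gaa and Psap) the values are averages over transcripts. 1 column matched no library label and was not used.

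For each Cycle and window the mean of log2(signal + 1) over libraries was taken as 1 value, with no filter. Windows were contrasted with starved cells in limma 3.58.1 (R 4.3.3), with Cycle as a block (6 residual degrees of freedom) and Benjamini-Hochberg adjustment over 15895 genes, at 0.05. The study divides each value by the starved mean of its Cycle, which is the source of the pairing. The block lowered the residual SD of 67.7% of genes, from a median of 0.254 to 0.206. The same code was tested on simulated data, read at 10.5 to 14 h. The main fit recovered 81 of 100 planted 2-fold changes and 4 of 100 planted 1.5-fold changes, and called 32 of 15695 unchanged genes. Without the block 0 of either size were recovered, and edgeR on reads recovered 97 and 46. A gene that was not called may thus still have changed, even by 2-fold. Changes were planted only in genes with a mean signal of at least 100, and the simulated spread was set, not estimated from these data. Recovery may thus differ in the data, also for genes of low signal such as Tfeb and Gabarapl2. The contrast of the last window with 10.5 to 14 h was not simulated. Alternatives were other pseudocounts, filters, scalings (TMM, median of ratios), no block, shared hours, single libraries, left-out libraries or Cycles, and edgeR 4.0.16 on recovered reads.

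Every one of the 43 genes may be named. The 5 largest called rises and falls, each in its window of largest change and with 1 sign in both Cycles, plus Sqstm1, Map1lc3b, Tfeb, Ctsl and Lamp1, are given in full. The genes, lists and tests were chosen with earlier results of these data known. Gene positions are from GENCODE M1 on NCBIM37 (mm9), and promoters from RefSeq on GRCm38.p6. Tools were Python 3.11.15, numpy 2.4.6, pandas 2.3.3 and matplotlib 3.10.9.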

Additional observations from a re-analysis of the deposited data

Results flagged for a closer look

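Of 26 sets of 4 to 10 libraries looked at for a single far value among the genes given in full, 2 held one, and chance gives about 1 in 20. Mitf at 3.5 to 6 h had its highest library in Cycle 2 at 4 h, with a signal of 125.5 where the nearest of the others was 77.0. Ulk2 in the same window had its highest library in Cycle 1 at 6 h, with 472.2 where the nearest was 367.

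In 9 of 258 combinations of gene and window, every library of Cycle 1 lay on one side of its starved mean and every library of Cycle 2 on the other. The difference was not tested. At 3.5 to 6 h the mean log2 changes in Cycle 1 and Cycle 2 were -0.28 and 0.20 for Wipi1, -0.38 and 0.26 for Ctsf, -0.29 and 0.23 for Gaa and 0.26 and -0.12 for Atg5. At 6.5 to 10 h they were -0.21 and 0.19 for Gabarapl1, -0.27 and 0.24 for Atg13 and -0.33 and 0.21 for Wipi1. For Ulk1 they were -0.21 and 0.10 at 0.5 to 3 h, and for Atg2a -0.35 and 0.23 at 14.5 to 20 h.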

How the results depend on the processing

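Windows are named here by their first hour. Counts of genes that rose under TMM, the median of ratios and edgeR were 10, 12 and 11 at 0.5 h (4 as reported), 13, 13 and 16 at 3.5 h (5) and 2, 2 and 4 at 20.5 h (1), and edgeR gave 8 at 6.5 h (4). Of all genes, 12.9, 13.6 and 13.1% rose at 0.5 h and 22.3, 22.8 and 22.9% at 3.5 h. At 20.5 h 20.8, 20.6 and 24.0% rose, and with edgeR 22.1% at 6.5 h. Falls were 6 at 6.5 h under TMM and the median of ratios (10) and 6 at 10.5 h under all of the 3 (10). Of all genes, 23.7 and 23.6% fell at 6.5 h, and 23.8, 23.8 and 23.4% at 10.5 h. Without the replicate block, rises were 2, 0 and 0 at 0.5, 14.5 and 20.5 h, falls 5 at 10.5 h and 8 at 14.5 h, and the F test called 17. Of all genes, 5.73, 12.8 and 12.6% rose in these windows, and 18.6 and 20.2% fell. With single libraries by hour as samples, rises were 9, 8, 7 and 4 at 0.5, 3.5, 6.5 and 20.5 h, falls 9, 13, 21, 23 and 28 at 0.5 to 14.5 h, 24 fell between 10.5 and 20.5 h, and the F test called 42. Of all genes, 14.15, 21.0, 22.9 and 26.2% rose in these windows. Falls of all genes were 39.2, 40.4, 36.7, 34.9 and 36.9%, and 17.4% between 10.5 and 20.5 h. A 1.5-fold minimum left rises of 2, 2, 2, 1, 0 and 0 in the 6 windows, and falls of 4 at 10.5 h and 10 at 14.5 h. By the fold rule, 39 of the 43 passed at 1.5-fold and 7 at the same hour and direction in both Cycles.

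Leaving out a starved library or 1 Cycle's value gave 1 to 5, 2 to 5, 2 to 4, 0 to 4, 0 to 4 and 0 to 1 rises and 2 to 4, 5 to 8, 4 to 11, 2 to 11, 2 to 18 and 8 to 24 falls over the windows, 0 in both directions between 10.5 and 20.5 h, and 26 to 29 genes by the F test, which was not run with a Cycle's value left out. Without the Cycle 2 library at -1 h, rises were 3 at 3.5 h and 2 at 14.5 h, where 16.2% and 17.7% of all genes rose. A lone Cycle is there assumed to vary like the other windows. Leaving out the Cycle 2 library at 0.5 h was chosen after seeing the data. Under the alternatives, none of the 13 genes given in full reversed. Lamp1 passed under 9 of 18 alternatives, and Ctsl, Atp6v1h, Atg7 and Ctsf missed the threshold under 7, 3, 2 and 1. The cause of these moves was not tested. Depth limits low signals, such as those of Gabarapl2, Tfeb and Mitf.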
